A study of Mus musculus with 6 samples.

Results

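The cell division programme of activated T cells was followed through 55 genes that build and run mitosis: the condensins and chromosome surface, the mitotic cyclins and their kinase, the Aurora and Polo kinases, the spindle checkpoint, the anaphase machinery, the mitotic kinesins, the kinetochore and the cleavage furrow. They were chosen by gene symbol as a named module, and all 55 had a row among the 49671 genes of the expression table and of the allele-resolved count table. The cells were splenic CD3+ T cells of female F1 mice from C57BL/6 mothers heterozygous for an Xist deletion and Mus musculus castaneus fathers, so that both groups carry 1 mus and 1 cast genome and a skewed X inactivation in which the cast X is the silent copy. Stimulated cells (3 libraries) were cultured for 48 hours on plate-bound anti-CD3 at 1 μg/ml with soluble anti-CD28 at 10 μg/ml, which together stand in for antigen and costimulation. Unstimulated cells (3 libraries) came off the enrichment column and went into lysis reagent at once, at 0 hours, so culture and stimulation cannot be told apart. The series as a whole asks how NFkB signalling and T cell activation bear on Xist RNA and on the upkeep of X inactivation.

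Resting T cells sit outside the cell cycle and start to divide only after the T cell receptor and a costimulatory receptor are engaged. At the entry to mitosis, Cdk1 with cyclin A or cyclin B is switched on by Cdc25 phosphatases, condensins compact the chromosomes, and motor proteins arrange microtubules into a spindle that the kinetochores grip. The spindle checkpoint holds back the anaphase-promoting complex until each chromosome is attached, after which separase cuts the sister chromatids apart and the central spindle places the cleavage furrow. Many genes of this machinery are transcribed late in the cycle under MuvB-containing complexes, B-Myb and FoxM1, and are held silent in resting cells by the DREAM complex.

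Library depth and identity were examined first. Allele-assigned reads came to 14905853, 18036050 and 20249376 in the stimulated libraries, against 11893039, 9606755 and 11747472 in the unstimulated libraries. Each of the 12 T cell markers was present in every library, with a summed level of 1070, 1140 and 1150 RPKM (reads scaled to gene length and library depth) in stimulated cells and 1080, 1120 and 928 RPKM in unstimulated cells. Unstimulated library 3 stood apart. It held more RNA of blood precursors than the other unstimulated libraries: the 12 erythroid precursor markers had a mean log2(RPKM + 1) of 2.21, 2.44 and 4.52 in unstimulated libraries 1, 2 and 3, and the 8 granulocyte precursor markers 3.14, 3.38 and 5.73. The count of higher genes, the medians of the module and its role groups, the fold changes that moved by over 1.5 times and the count of changed allelic shares are therefore also given without it.

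Stimulated T cells carried far more RNA of the mitotic machinery. Of the 55 genes, 53 were higher in stimulated than in unstimulated cells (limma on log2(RPKM + 1), Benjamini-Hochberg adjusted over all 13288 genes tested, threshold 0.05), none was lower, and Smc4 and Cdc25b did not pass. Among all genes tested, 31.2% were higher and 48.9% were lower by the same rule. Every log2 fold change of the 55 was above 0, so none was lower at an unadjusted p of 0.05, and edgeR and DESeq2 on the summed allelic counts also gave 0 lower. The median log2 fold change was 2.55, with a range of 0.08 to 3.43, beside a median of -0.24 over all genes tested. A log2 fold change of at least 2 was reached by 39 of the genes, beside 3.21% of all genes tested. In 53 of the genes every stimulated library lay above every unstimulated library, which held for 32.7% of all genes tested. All 55 genes passed the filter on low values (1 RPKM in at least 3 libraries), but 19 of them did not reach 1 RPKM in all unstimulated libraries and passed through their stimulated libraries. Because the scale is log2(RPKM + 1), the fold changes of such low genes are understated. In bulk RNA, more dividing cells and more mitotic RNA per cell cannot be told apart. The groups also differed in markers of other cells. Mature myeloid markers summed to 1140, 1510 and 3350 RPKM in unstimulated libraries, against 6.04, 5.21 and 8.90 RPKM in stimulated libraries. B cell markers summed to 147, 122 and 238 RPKM, against 18.6, 10.8 and 22.6 RPKM. RNA of such cells may enter the unstimulated levels and allelic shares, and its part was not tested.

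**Figure D1:**
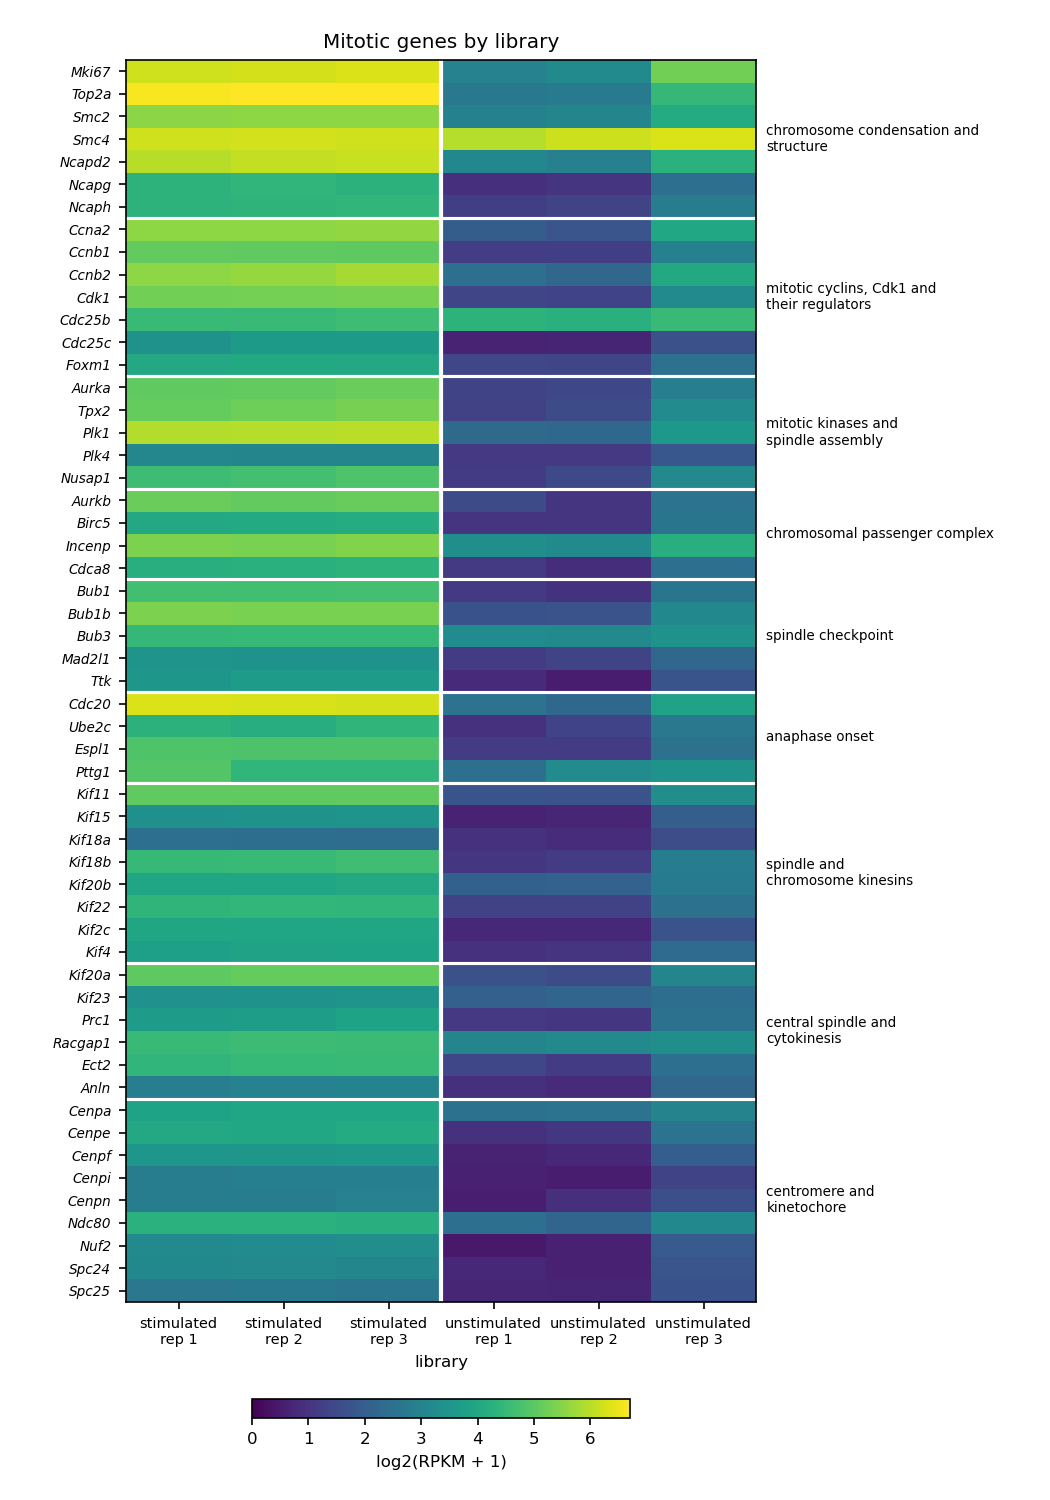
Level of the 55 mitotic genes in each library as log2(RPKM + 1), with genes in rows by role and the 3 stimulated libraries left of the 3 unstimulated libraries. The stimulated columns are alike and bright, with Top2a the brightest row at 98.9 to 103 RPKM; the unstimulated columns are dark except in library 3, and the Smc4 and Cdc25b rows are bright throughout.

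The 2 groups differed in how closely their libraries matched. Over the 55 genes, the coefficient of variation had a median of 3.45% among stimulated libraries (0.496% to 22.4%, the highest for Pttg1) and of 81.5% among unstimulated libraries (8.07% to 109%), beside medians of 6.62% and 11.7% over all genes tested. The spread among unstimulated libraries lay mostly between library 3 and the others, which themselves differed by a median of 1.13-fold and by at most 1.92-fold. Libraries 1 and 2 differed by at least 1.5-fold in 5 genes. For Pttg1, at 4.47, 8.42 and 9.58 RPKM, library 1 was the one apart. On average, the log2(RPKM + 1) of the module was 4.42, 4.44 and 4.47 in the stimulated libraries, against 1.68, 1.69 and 2.89 in the unstimulated libraries. All 55 genes were higher in unstimulated library 3 than in both other unstimulated libraries, which held for 54.7% of all genes tested. Library 3 was at least 2-fold above the mean of libraries 1 and 2 for 46 of the 55 genes, beside 5.15% of all genes tested, and at least 4-fold for 21, beside 1.05%. The median ratio was 3.66, with a range of 1.15 to 6.10. With 1 library on one side, this gap has no test. Stimulated cells had a median of 14.0 times the level of unstimulated libraries 1 and 2, and 3.26 times the level of unstimulated library 3. Without unstimulated library 3, 54 genes were higher, Cdc25b being added (log2 fold change 0.26, adjusted p = 0.0049, limma), and the median log2 fold change was 3.04. All 55 log2 fold changes were larger without it, by 0.06 to 0.73. The fold change moved by over 1.5 times for 5 genes: the log2 value was 3.20 for Mki67, 3.70 for Ccna2, 3.91 for Cdk1, 3.77 for Tpx2 and 3.39 for Nusap1. By role, the median without library 3 was 3.05 for chromosome condensation, 3.33 for cyclins, Cdk1 and their regulators, 3.69 for kinases and spindle assembly, and 3.16 for the passenger complex. It was 2.99 for the checkpoint, 3.39 for anaphase onset, 2.98 for kinesins, 2.38 for cytokinesis and 2.32 for the kinetochore.

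The largest library 3 ratios belonged to Nuf2, Ccna2 and Kif18b. Nuf2, a subunit of the Ndc80 complex that binds microtubules at the kinetochore, had 8.24, 8.48 and 8.86 RPKM in stimulated libraries, against 0.385, 0.539 and 2.82 RPKM in unstimulated libraries, a ratio of 6.10. Ccna2, the cyclin that drives S phase and the entry to mitosis, had 46.1, 46.2 and 48.3 RPKM in stimulated libraries, against 2.96, 2.42 and 15.2 RPKM in unstimulated libraries, a ratio of 5.65. Kif18b, a kinesin that shortens microtubules, had 21.6, 21.8 and 23.9 RPKM in stimulated libraries, against 1.10, 1.23 and 6.16 RPKM in unstimulated libraries, a ratio of 5.28. The smallest ratios belonged to Bub3 at 1.15, Smc4 at 1.17 and Racgap1 at 1.18, all of which were already above 7 RPKM in every unstimulated library. In each of these genes but Smc4, unstimulated library 3 still lay below all stimulated libraries.

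Several other gene groups stood higher in the same library. Of the erythroid precursor markers, 12 of 12 were at least 2-fold higher in library 3 than in the mean of libraries 1 and 2, with a median ratio of 5.93. Their summed level was 171, 178 and 152 RPKM in the stimulated libraries, of which 168, 175 and 148 RPKM came from Tfrc, the transferrin receptor, which activated T cells also make, and 65.0, 79.8 and 360 RPKM in unstimulated libraries 1, 2 and 3. Of the defining markers, Klf1 and Elane are named after their values were seen. Klf1, the erythroid master regulator, had 0.0574, 0.241 and 0.150 RPKM in stimulated libraries, against 3.73, 5.29 and 24.2 RPKM in unstimulated libraries. Of the granulocyte precursor markers, 8 of 8 were at least 2-fold higher, with a median ratio of 6.35, and they summed to 0.0911, 0.304 and 0.770 RPKM in the stimulated libraries, against 107, 138 and 749 RPKM in the unstimulated libraries. Elane, which encodes neutrophil elastase and is made by promyelocytes, was listed at 0 in all stimulated libraries and had 2.72, 3.5 and 25.9 RPKM in the unstimulated libraries. Globin and other mature red cell markers summed to 82.6, 827 and 1370 RPKM in unstimulated libraries 1, 2 and 3. Members of that list differed in pattern: Hba-a1 had 21.1, 230 and 312 RPKM in these libraries, and Slc4a1 had 5.42, 8.37 and 66.8 RPKM. B cell markers summed to 18.6, 10.8 and 22.6 RPKM in stimulated cells and to 147, 122 and 238 RPKM in unstimulated cells, and mature myeloid markers to 6.04, 5.21 and 8.90 RPKM in stimulated cells against 1140, 1510 and 3350 RPKM in unstimulated cells. The 15 replication genes set beside the module had a median library 3 ratio of 2.07. The part of these cells in the mitotic RNA of library 3 was not tested.

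**Figure D2:**
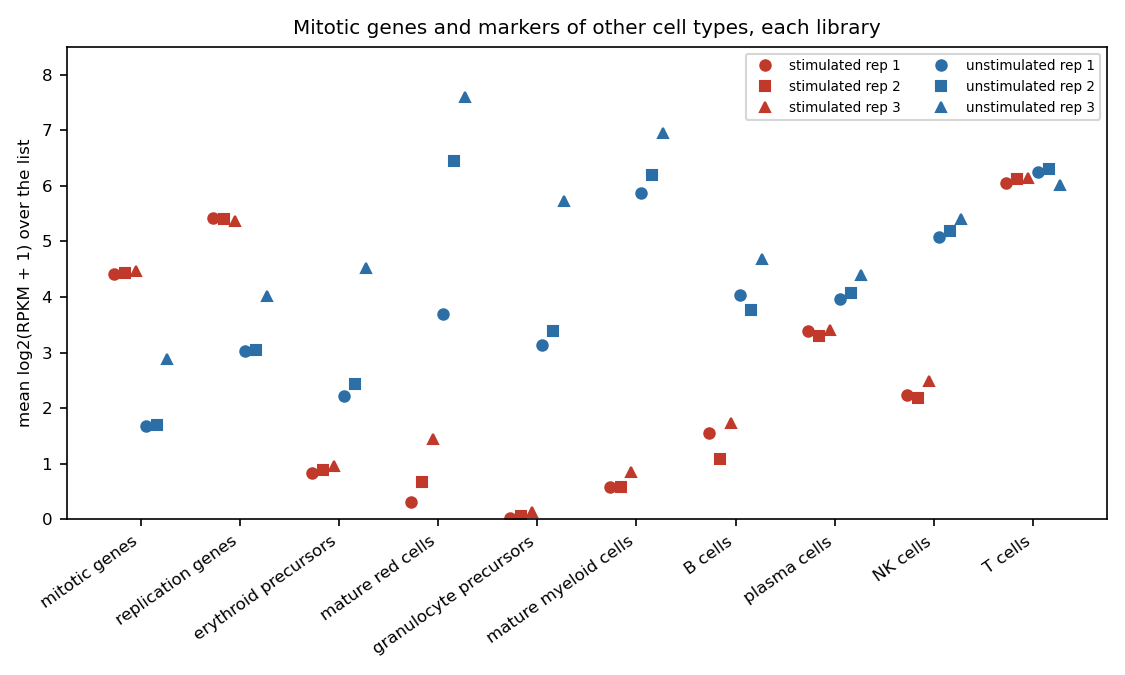
Mean log2(RPKM + 1) of the mitotic genes, of replication genes and of marker lists, with 1 point a library, stimulated libraries in red left of unstimulated libraries in blue. Unstimulated library 3 (blue triangle) is above the other unstimulated libraries for the mitotic genes (2.89 against 1.68 and 1.69) and for erythroid and granulocyte precursor markers (4.52 and 5.73), and below them for T cell markers (6.01 against 6.25 and 6.30).

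Chromosome condensation genes were among the most abundant of the module after stimulation, and 6 of 7 were higher, with a median log2 fold change of 2.56. Top2a encodes the topoisomerase that untangles sister DNA and had the highest level of the 55 genes in stimulated cells. It stood at 98.9, 102 and 103 RPKM in stimulated cells, against 5.54, 5.76 and 21.2 RPKM in unstimulated cells (log2 fold change 3.36 ± 0.46 SE, adjusted p = 0.00047, limma). Ncapd2, a non-SMC subunit of condensin I, had 62.4, 67.1 and 68.8 RPKM in stimulated libraries, against 7.76, 6.62 and 18.4 RPKM in unstimulated libraries (log2 fold change 2.62 ± 0.33 SE, adjusted p = 0.00034). Smc4, the SMC subunit that pairs with Smc2 in both condensins, did not follow. Its level was 73.4, 75.0 and 74.0 RPKM in the stimulated libraries and 61.3, 72.3 and 78.4 RPKM in the unstimulated libraries, the groups overlapped, and the difference was not significant (log2 fold change 0.08 ± 0.09 SE, adjusted p = 0.48). Its partner Smc2 had 45.3, 46.5 and 45.9 RPKM in stimulated cells, against 6.64, 7.27 and 16.5 RPKM in unstimulated cells (log2 fold change 2.18 ± 0.30 SE, adjusted p = 0.00051), so Smc4 was the more abundant of the pair in all libraries and by the widest margin in unstimulated cells. Under median centring, edgeR with TMM factors and DESeq2, Smc4 was higher (log2 fold changes of 0.34, 0.32 and 0.29). The other members, Mki67, Ncapg and Ncaph, rose by 2.47 to 2.88 on the log2 scale. Mki67, which encodes the Ki-67 protein that coats mitotic chromosomes, reached 49.5% of its stimulated mean in unstimulated library 3. Ncapg shares exonic bases with Lcorl on the other strand, and the strand setting of the authors' counting is not given in the sources used here, so its level may hold reads of its neighbour. The same holds for the other genes named as sharing exonic bases, and for Cdc25b, Cdca8, Plk1, Kif22, Cdc20 and Kif18a. These share shorter stretches with a gene on the other strand (11 to 500 bases, summed over annotated exons). Genes on the same strand share exonic bases with Top2a (Gm23451), Ncapd2 (Scarna10 and Gm28967) and Foxm1 (Tex52 and Gm44596), which no strand setting separates. Ccnb1, Ccnb2, Kif22 and Kif4 each have 1 pseudogene named after them in the annotation. The part of these copies in the levels and allelic shares was not tested.

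The cyclins, Cdk1 and their regulators had 6 of 7 members higher and a median log2 fold change of 2.75. Cdk1, the kinase that drives mitosis, had 37.5, 38.3 and 39.0 RPKM in stimulated libraries, against 1.66, 1.56 and 8.15 RPKM in unstimulated libraries (log2 fold change 3.31 ± 0.48 SE, adjusted p = 0.00062, limma). Its partner cyclin B1, encoded by Ccnb1, had 33.2, 32.3 and 31.8 RPKM in the stimulated libraries and 1.31, 1.36 and 6.63 RPKM in the unstimulated libraries (log2 fold change 3.27 ± 0.45 SE, adjusted p = 0.0005), and Ccnb2 rose by 2.75 on the log2 scale. Ccna2 reached 46.9 ± 1.24 RPKM (SD, n = 3) in stimulated cells and 6.86 ± 7.23 RPKM (SD, n = 3) in unstimulated cells (log2 fold change 2.99 ± 0.56 SE, adjusted p = 0.0023). Its exons overlap those of Exosc9 on the other strand. Cdc25b and Cdc25c encode phosphatases that remove the inhibitory phosphates of Cdk1. Cdc25c had 9.75, 11.5 and 11.5 RPKM in stimulated cells, against 0.551, 0.607 and 2.19 RPKM in unstimulated cells (log2 fold change 2.57 ± 0.28 SE, adjusted p = 0.00016), and shares exonic bases with Gm3550 on the other strand. Cdc25b had 21.8, 22.3 and 23.5 RPKM in stimulated libraries, against 19.1, 18.1 and 22.2 RPKM in unstimulated libraries, with unstimulated library 3 inside the stimulated range, and did not pass the test (log2 fold change 0.18 ± 0.08 SE, adjusted p = 0.083). It passed under median centring (0.44), edgeR with TMM factors (0.52), edgeR with library sizes alone (0.27), DESeq2 (0.49) and quantile normalization (0.19), all on the log2 scale. In unstimulated cells Cdc25b was the more abundant of the 2 phosphatases, at 19.8 ± 2.15 RPKM (SD, n = 3), beside 1.12 ± 0.932 RPKM (SD, n = 3) for Cdc25c. Foxm1, the transcription factor of late cell cycle genes, rose by 2.28 on the log2 scale, to 15.7 ± 0.209 RPKM (SD, n = 3) in stimulated cells, against 2.68 ± 1.77 RPKM (SD, n = 3) in unstimulated cells.

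All 5 mitotic kinases and spindle assembly factors were higher, with the highest median of the 9 role groups, 3.18. By edgeR with TMM factors on the summed allelic counts, anaphase onset (3.63) and the checkpoint (3.53) lay above this group (3.5). Plk1, the Polo kinase that acts from centrosome maturation to cytokinesis, had 60.3, 61.2 and 63.3 RPKM in the stimulated libraries and 3.94, 3.75 and 10.8 RPKM in the unstimulated libraries (log2 fold change 3.26 ± 0.34 SE, adjusted p = 0.00013, limma). Plk4, the Polo kinase that starts centriole duplication, had the smallest change of this group, with 7.55, 7.31 and 7.31 RPKM in stimulated cells, against 1.17, 1.17 and 2.51 RPKM in unstimulated cells (log2 fold change 1.72 ± 0.19 SE, adjusted p = 0.00019). Aurka, the Aurora kinase of the spindle poles, and Tpx2, the protein that activates it there, rose by 3.21 and 3.18 on the log2 scale. Nusap1, which bundles spindle microtubules, had 23.6, 24.8 and 27.7 RPKM in stimulated libraries, against 1.26, 1.77 and 7.93 RPKM in unstimulated libraries (log2 fold change 2.78 ± 0.49 SE, adjusted p = 0.0017). Its exons share bases with those of Oip5 on the other strand.

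The chromosomal passenger complex corrects faulty attachments and later moves to the central spindle, and all 4 of its subunits were higher. Aurkb, its kinase, had 35.3, 32.9 and 34.6 RPKM in the stimulated libraries and 1.95, 1.01 and 4.88 RPKM in the unstimulated libraries (log2 fold change 3.43 ± 0.36 SE, adjusted p = 0.00013, limma). With Cdc20 this was the largest log2 fold change of the module. Without unstimulated library 3, Top2a (3.94), Cdc20 (3.92) and Cdk1 (3.91) lay above Aurkb (3.85). For Aurkb, unstimulated library 3 held 14.2% of the stimulated mean, the lowest share of the 55 genes. Incenp, the scaffold of the complex, had 40.5, 40.1 and 42.3 RPKM in stimulated cells, against 9.09, 8.15 and 17.3 RPKM in unstimulated cells (log2 fold change 1.81 ± 0.25 SE, adjusted p = 0.0005), the smallest change of the 4 and the highest level of the 4 in unstimulated cells. Birc5, which encodes survivin, and Cdca8, which encodes borealin, rose by 2.55 and 2.76 on the log2 scale.

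Of the spindle checkpoint, 5 of 5 genes were higher, with a median log2 fold change of 2.62. Bub1b encodes BubR1, a part of the complex that inhibits Cdc20. It had 40.3, 39.6 and 39.9 RPKM in stimulated libraries, against 2.21, 2.26 and 7.68 RPKM in unstimulated libraries (log2 fold change 3.19 ± 0.38 SE, adjusted p = 0.00023, limma). Bub3, which brings Bub1 and BubR1 to the kinetochore, had 21, 21.4 and 21.6 RPKM in the stimulated libraries and 8.49, 8.30 and 9.61 RPKM in the unstimulated libraries (log2 fold change 1.19 ± 0.07 SE, adjusted p = 9.3e-06), with little spread in either group. Mad2l1, which encodes Mad2, had 10.1, 9.85 and 9.77 RPKM in stimulated cells, against 1.28, 1.59 and 3.63 RPKM in unstimulated cells (log2 fold change 1.86 ± 0.25 SE, adjusted p = 0.00049). The kinases Bub1 and Ttk rose by 3.10 and 2.62 on the log2 scale.

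All 4 anaphase genes were higher. Cdc20, the activator of the anaphase-promoting complex and the target of the checkpoint, had 81.1, 77.6 and 75.8 RPKM in stimulated libraries, against 4.82, 3.70 and 13.4 RPKM in unstimulated libraries (log2 fold change 3.43 ± 0.39 SE, adjusted p = 0.0002, limma). Espl1, which encodes separase, had 27.7, 27.6 and 27.2 RPKM in the stimulated libraries and 1.24, 1.29 and 4.63 RPKM in the unstimulated libraries (log2 fold change 3.21 ± 0.35 SE, adjusted p = 0.00016). Pttg1, which encodes the separase inhibitor securin, had 29.2, 20.1 and 20.3 RPKM in stimulated cells, against 4.47, 8.42 and 9.58 RPKM in unstimulated cells (log2 fold change 1.54 ± 0.27 SE, adjusted p = 0.0016). Its libraries were the least alike of the stimulated group, library 1 lying above the others, and unstimulated library 1 was the lowest of its own group. Ube2c, the ubiquitin-conjugating enzyme of the complex, rose by 2.62 on the log2 scale, and shares exonic bases with Tnnc2 on the other strand.

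**Figure D3:**
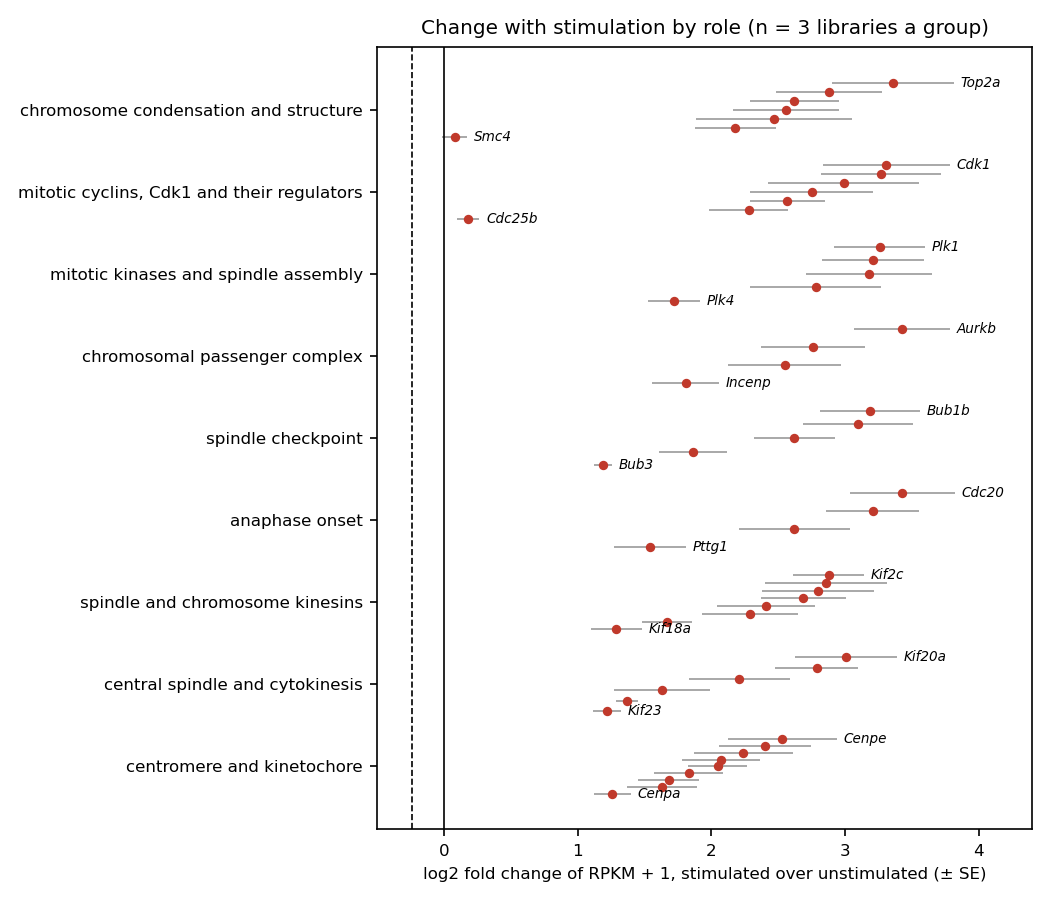
Log2 fold change of RPKM + 1 (horizontal axis, ± SE from limma) of the 55 genes by role, stimulated over unstimulated, with the largest and smallest of each role named. The solid line marks 0 and the dashed line the median of all 13288 genes tested, -0.24; 53 genes lie between 1.19 and 3.43, and Smc4 (0.08) and Cdc25b (0.18) lie near 0.

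Among the 8 spindle and chromosome kinesins, all were higher, with a median log2 fold change of 2.55. Kif2c, which encodes MCAK, a kinesin that takes microtubules apart at the centromere, had 14.5, 14.7 and 14.3 RPKM in stimulated libraries, against 0.672, 0.675 and 2.31 RPKM in unstimulated libraries (log2 fold change 2.88 ± 0.27 SE, adjusted p = 7.1e-05, limma). Kif18a, a kinesin that damps chromosome movement at the metaphase plate, had the lowest level of the module in stimulated cells, with 4.43, 4.32 and 4.26 RPKM in the stimulated libraries and 0.935, 0.803 and 1.98 RPKM in the unstimulated libraries (log2 fold change 1.29 ± 0.19 SE, adjusted p = 0.0007). Kif11, which encodes Eg5, slides spindle poles apart, and Kif15 can share that task. Kif11 had 32.3, 32.2 and 32.7 RPKM in stimulated cells, against 2.34, 2.29 and 8.99 RPKM in unstimulated cells (log2 fold change 2.80 ± 0.42 SE, adjusted p = 0.00075), and Kif15 had 9.33, 9.95 and 9.98 RPKM in stimulated libraries, against 0.551, 0.656 and 3.11 RPKM in unstimulated libraries (log2 fold change 2.29 ± 0.36 SE, adjusted p = 0.00097). Kif4, the X-linked chromokinesin (chrX:100625737-100727214, plus strand, mm10), had 12.8, 13.6 and 13.7 RPKM in the stimulated libraries and 0.925, 1.02 and 4.11 RPKM in the unstimulated libraries (log2 fold change 2.41 ± 0.36 SE, adjusted p = 0.0008), and shares exonic bases with Pdzd11 on the other strand. Kif18b, Kif20b and Kif22 rose by 2.86, 1.67 and 2.69 on the log2 scale.

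Genes of the central spindle and cytokinesis were all higher too, 6 of 6, with the lowest median of the role groups, 1.92. This group stayed lowest by edgeR with TMM factors on the summed allelic counts (2.54). Without unstimulated library 3 the kinetochore group was lowest, at 2.32 beside 2.38. Kif20a, which encodes the kinesin that carries the passenger complex to the central spindle, had 31.9, 34.0 and 34.0 RPKM in stimulated cells, against 2.18, 1.92 and 7.28 RPKM in unstimulated cells (log2 fold change 3.01 ± 0.38 SE, adjusted p = 0.00033, limma), and its exons overlap those of Cdc23 on the other strand. Kif23 and Racgap1 encode the 2 subunits of centralspindlin and had the 2 smallest changes of this group. Kif23 had 9.54, 9.90 and 10.0 RPKM in stimulated libraries, against 3.18, 3.52 and 4.34 RPKM in unstimulated libraries (log2 fold change 1.22 ± 0.10 SE, adjusted p = 4.7e-05), and Racgap1 had 22.4, 23.1 and 22.7 RPKM in the stimulated libraries and 7.25, 8.22 and 9.15 RPKM in the unstimulated libraries (log2 fold change 1.37 ± 0.08 SE, adjusted p = 1.2e-05). Both were present in all unstimulated libraries with a coefficient of variation of 16.2% and 11.6%, beside the module's median of 81.5%. Ect2, the exchange factor that centralspindlin recruits to activate RhoA, rose by 2.79, Prc1, which crosslinks the central spindle, by 2.21, and Anln, the furrow scaffold anillin, by 1.63 on the log2 scale. Prc1 shares exonic bases with Rccd1 on the other strand.

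The 9 centromere and kinetochore genes were all higher, with a median of 2.05, and were low in level: their stimulated means ran from 5.36 ± 0.216 RPKM (SD, n = 3) for Spc25 to 18.2 ± 0.345 RPKM (SD, n = 3) for Ndc80. By edgeR with TMM factors on the summed allelic counts, which add no 1 to low levels, the median of this group was 3.19. Cenpe, the kinetochore motor, had 15.5, 15.2 and 16.4 RPKM in stimulated cells, against 0.939, 1.12 and 4.88 RPKM in unstimulated cells (log2 fold change 2.53 ± 0.41 SE, adjusted p = 0.0011, limma). Cenpa, the histone H3 variant that marks centromeres, had 13.8, 14.5 and 14.7 RPKM in stimulated libraries, against 4.66, 4.82 and 7.03 RPKM in unstimulated libraries (log2 fold change 1.26 ± 0.14 SE, adjusted p = 0.00017), the smallest change of the group. Cenpf, a protein of the outer corona, had 10.4, 10.7 and 10.9 RPKM in the stimulated libraries and 0.572, 0.723 and 3.04 RPKM in the unstimulated libraries (log2 fold change 2.40 ± 0.35 SE, adjusted p = 0.00063). Cenpi, the X-linked member (chrX:134308084-134362639, plus strand, mm10), belongs to the constitutive centromere network. It had 6.22, 6.45 and 6.47 RPKM in stimulated cells, against 0.543, 0.422 and 1.57 RPKM in unstimulated cells (log2 fold change 2.05 ± 0.22 SE, adjusted p = 0.00015), the lowest level of the module in unstimulated cells. The 4 subunits of the Ndc80 complex, which are assembled together, rose by 1.68 (Ndc80), 2.24 (Nuf2), 2.07 (Spc24) and 1.63 (Spc25) on the log2 scale. Spc24 had 7.68, 7.87 and 7.37 RPKM in stimulated libraries, against 0.700, 0.519 and 2.38 RPKM in unstimulated libraries. Ndc80 was the most abundant of the 4 in all libraries, with 5.24 ± 2.23 RPKM (SD, n = 3) in unstimulated cells.

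The wider pathway was read from lists of genes outside the module, which were chosen with earlier results of these data known. Among all genes tested, 31.2% were higher and 48.9% were lower, and the counts of a list depend on the scaling. Of 28 further kinetochore and centromere genes, 24 were higher, 1 was lower and 3 did not pass. Cenpm, of the constitutive centromere network, had a log2 fold change of 2.72 and Oip5, which helps load Cenpa, of 2.45. Zwint was the lower gene at -0.18, and its sign turned to 0.08 under median centring. Of 23 further spindle genes tested, 21 were higher and 2 lower: Gtse1 and Hmmr rose by 3.07 and 3.01, Numa1, which anchors dynein at the spindle poles, fell by 1.14, and Haus3 stood at -0.17. Haus3 turned to 0.09 under median centring and was higher by edgeR with TMM factors (0.46, adjusted p = 0.0017), so its direction depends on the scaling. Of 17 subunits and regulators of the anaphase-promoting complex, 11 were higher, 1 was lower and 5 did not pass. Under median centring 15 were higher and 0 lower, and by edgeR with TMM factors 13 of 16 were higher and 0 lower. The higher genes were led by Fbxo5, the inhibitor Emi1, at 1.87, and Ube2s, the chain-extending enzyme of the complex, at 1.07, while the core subunit Anapc2 was at -0.29 and at 0.15 by edgeR with TMM factors. Of 11 further regulators of Cdk1 and mitotic exit, 8 were higher and 1 lower, with Cks1b at 3.04, the kinase Mastl at 2.17, and Arpp19, a target of that kinase, at -0.30 (0.03 under quantile normalization). Of 7 genes of condensin II and cohesion release, 6 were higher and none lower, with the cohesin protector Sgo1 at 2.69 and Cdca5, which encodes sororin, at 2.80.

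Of 14 further cytokinesis genes, 6 were higher, 5 lower and 3 did not pass, beside 31.2% higher and 48.9% lower among all genes tested. Under median centring 8 were higher and 3 lower, and by edgeR with TMM factors 7 and 2. Cep55, which recruits the abscission machinery to the midbody, had 25.4, 26.4 and 28.4 RPKM in stimulated libraries, against 0.528, 0.608 and 1.56 RPKM in unstimulated libraries. Its log2 fold change of 3.91 ± 0.20 (SE, adjusted p = 5.8e-06, limma) was above that of every gene of the module. Cit, which encodes citron kinase, rose by 1.92. The ESCRT genes Ist1 and Vps4b, which also serve endosomes, fell by 0.89 and 0.56. Of 9 centriole and centrosome genes, 5 were higher and 4 lower: Stil, a partner of Plk4, rose by 2.21 and Nedd1 by 0.72, while Cdk5rap2 fell by 0.64 and Cep135 by 0.51. Cdk5rap2 stood at -0.32 by edgeR with TMM factors, and Cep135 did not pass by that test (-0.13, adjusted p = 0.243) or under quantile normalization (-0.15, adjusted p = 0.105, limma). With median centring 5 of the 9 were higher and 2 lower, and by edgeR with TMM factors 5 and 1. The 15 replication genes were all higher, with Rrm2 at 3.27 and Cdc45 at 3.02.

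Promoters of the module were compared for the sites of late cell cycle control. RefSeq windows from 250 bases before to 50 bases after the annotated start (GRCm38.p6) were held for 46 of the 55 genes, and were searched on both strands for TTTGAA, the cell cycle genes homology region (CHR) bound by MuvB complexes, and for CCAAT, the box bound by NF-Y. TTTGAA lay in 33 of 46 windows (71.7%), beside 20.2% of the 27025 genes with a window and 14.2% of the 8457 of them that were tested for expression. Within 50 bases of the start, in either direction, it lay in 30 of 46 (65.2%), beside 5.72% and 3.85%. CCAAT lay in 33 of 46 (71.7%), beside 41.1% and 42.9%. Both lay in 28 of 46 (60.9%), beside 7.97% and 5.88%, and the 2 motifs shared bases in 1 gene. A match is a description of letters in the window and not of binding.

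**Figure D4:**
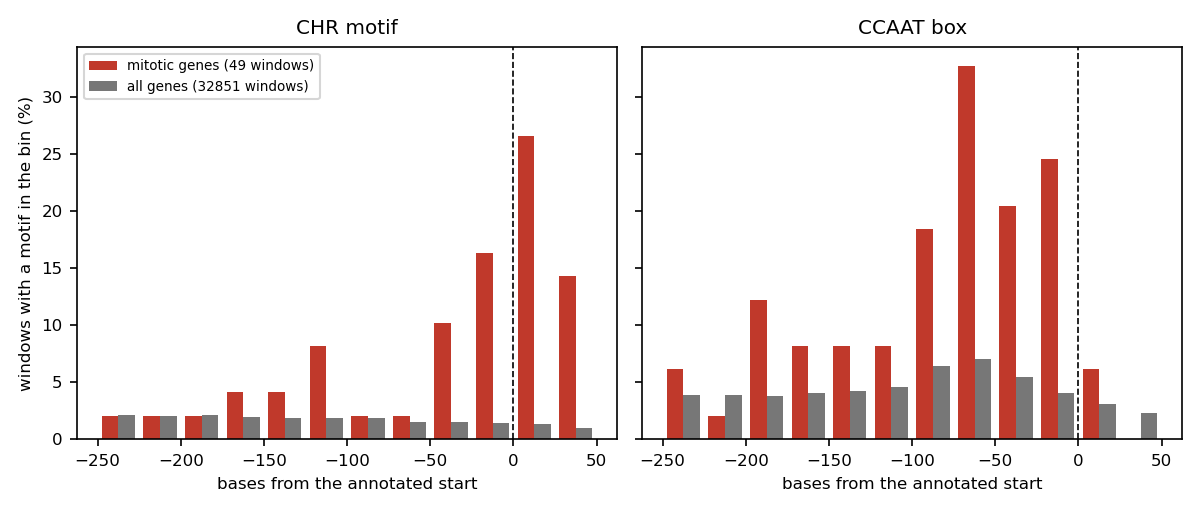
Share of promoter windows with a motif beginning in each bin along the window (horizontal axis, bases from the annotated start), for the CHR motif TTTGAA on the left and the CCAAT box on the right, mitotic genes in red and all genes in grey. The red bars rise around the start for TTTGAA and upstream of it for CCAAT, where 71.7% of the mitotic genes hold each motif somewhere in the window.

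The windows of 6 genes show these arrangements; they are 300 bases each, read 5′ to 3′ on the strand of the gene, with TTTGAA and CCAAT (or CCAAT on the other strand, ATTGG) in capitals. Cdc20, Cdk1 and Plk1 had the largest changes of the anaphase, cyclin and kinase groups with all libraries kept, and hold both motifs. Without unstimulated library 3, Tpx2 (3.77 on the log2 scale) lay above Plk1 (3.69). Kif4 is X-linked and holds both. Ccnb1 rose as strongly without TTTGAA in its window, and Cdc25b did not pass the test.
Cdc20 (chr4:118437294-118437593, minus strand): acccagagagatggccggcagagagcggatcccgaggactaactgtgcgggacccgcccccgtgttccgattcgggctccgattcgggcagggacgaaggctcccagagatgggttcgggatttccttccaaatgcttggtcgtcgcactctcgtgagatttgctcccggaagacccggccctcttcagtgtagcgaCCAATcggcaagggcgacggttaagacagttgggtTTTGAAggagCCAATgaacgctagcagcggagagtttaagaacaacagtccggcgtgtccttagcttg
Cdk1 (chr10:69352863-69353162, minus strand): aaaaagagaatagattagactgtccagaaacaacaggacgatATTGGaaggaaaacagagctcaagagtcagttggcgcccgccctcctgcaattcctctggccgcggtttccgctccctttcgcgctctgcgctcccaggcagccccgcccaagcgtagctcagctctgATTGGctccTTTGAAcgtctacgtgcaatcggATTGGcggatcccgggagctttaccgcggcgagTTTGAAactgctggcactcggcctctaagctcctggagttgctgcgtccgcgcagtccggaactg
Plk1 (chr7:122159185-122159484, plus strand): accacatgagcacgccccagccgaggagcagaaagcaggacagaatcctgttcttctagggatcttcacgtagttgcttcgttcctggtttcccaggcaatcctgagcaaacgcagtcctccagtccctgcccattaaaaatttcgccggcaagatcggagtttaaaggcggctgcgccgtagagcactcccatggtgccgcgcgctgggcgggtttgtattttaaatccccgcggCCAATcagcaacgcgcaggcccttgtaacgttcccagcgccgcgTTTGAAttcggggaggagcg
Kif4 (chrX:100625815-100626114, plus strand): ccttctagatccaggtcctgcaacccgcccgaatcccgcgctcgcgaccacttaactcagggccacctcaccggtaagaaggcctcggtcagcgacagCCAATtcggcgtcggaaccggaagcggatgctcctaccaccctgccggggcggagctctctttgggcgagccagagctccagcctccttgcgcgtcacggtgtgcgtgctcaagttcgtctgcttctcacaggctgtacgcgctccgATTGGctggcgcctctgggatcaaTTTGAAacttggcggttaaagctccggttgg
Ccnb1 (chr13:100786437-100786736, minus strand): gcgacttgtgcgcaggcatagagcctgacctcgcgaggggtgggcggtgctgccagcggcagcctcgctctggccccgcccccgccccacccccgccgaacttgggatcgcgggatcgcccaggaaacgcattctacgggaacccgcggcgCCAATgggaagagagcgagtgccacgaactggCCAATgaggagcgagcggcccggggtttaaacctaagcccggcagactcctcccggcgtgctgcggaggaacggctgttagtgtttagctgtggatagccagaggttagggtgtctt
Cdc25b (chr2:131186698-131186997, plus strand): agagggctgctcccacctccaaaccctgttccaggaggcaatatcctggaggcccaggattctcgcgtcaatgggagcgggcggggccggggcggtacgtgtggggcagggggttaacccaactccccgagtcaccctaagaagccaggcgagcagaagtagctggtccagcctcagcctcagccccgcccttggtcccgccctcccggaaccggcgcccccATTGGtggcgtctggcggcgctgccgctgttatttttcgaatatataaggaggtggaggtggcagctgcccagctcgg

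In Cdc20, TTTGAA began at position -18 from the start, between CCAAT boxes at -53 and -8. In Cdk1, TTTGAA occurred at -71 and -15, with CCAAT boxes at -208, -80 and -48. In Plk1 and Kif4 it began at 30 and 19, within the transcribed part by the RefSeq start of each window. The whole Kif4 window lies inside the gene as GENCODE places it, from 100625737 on, so its offset depends on the annotation. Ccnb1 holds CCAAT boxes at -99 and -67, and Cdc25b a single box at -28. The 33 genes with TTTGAA had log2 fold changes of 1.19 to 3.43 with a median of 2.62, and the 13 without it 0.18 to 3.27 with a median of 2.24, and 12 of those 13 passed the test as higher.

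Both parental alleles of the autosomal genes were read from the allele-resolved counts. For the 53 autosomal genes, the cast share of reads had a median of 49.4% in stimulated cells and 48.4% in unstimulated cells, beside 49.27% to 49.42% for all autosomal reads of a library. The mean share lay between 45% and 55% for 42 genes in stimulated cells and for 32 in unstimulated cells, which had fewer reads: the median gene had 8520 allelic reads over the stimulated libraries and 767 over the unstimulated libraries. By edgeR's quasi-likelihood test of cast against mus reads within libraries (Benjamini-Hochberg adjusted over 12470 autosomal genes), 13 genes were read unequally in stimulated cells, 6 towards cast and 7 towards mus. In unstimulated cells 14 were, 3 towards cast and 11 towards mus. Among all autosomal genes tested, 35.5% passed in stimulated and 30.2% in unstimulated cells, so the module's counts lay below the background. They also moved with single libraries: 6 passed in stimulated cells without stimulated library 3, and 8 passed in unstimulated cells without unstimulated library 1. With same-numbered libraries blocked, Espl1 (0.19, adjusted p = 0.0417) and Top2a (-0.12, adjusted p = 0.00405) passed as well in stimulated cells, and Bub3 (-0.32, adjusted p = 0.023) and Plk1 (0.34, adjusted p = 0.0481) in unstimulated cells.

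Kif11 was the most unequal of the autosomal genes. Its cast share was 74.6%, 73.5% and 72.9% in stimulated libraries, against 64.7%, 67.7% and 77.3% in unstimulated libraries, with log2 cast to mus ratios of 1.48 (adjusted p = 1.3e-08, edgeR) and 1.35 (adjusted p = 3.4e-06). Both calls held under every alternative run. Kif15 leaned towards mus, with 40.3%, 39.8% and 40.0% in stimulated libraries, against 37.4%, 50% and 31.7% in unstimulated libraries (log2 ratios of -0.58 and -0.77); the call in unstimulated cells was lost without unstimulated library 3 (-0.37, adjusted p = 0.145, edgeR). Ccna2 leaned the same way, with 45%, 42.2% and 42.9% in stimulated libraries, against 45.4%, 46.4% and 38.2% in unstimulated libraries (-0.39 and -0.48), and its call in unstimulated cells was also lost without unstimulated library 3 (-0.24, adjusted p = 0.267). Smc4 had 48.6%, 47.9% and 46.3% in stimulated libraries, against 46.2%, 46.6% and 46.8% in unstimulated libraries (-0.14 and -0.20); its call in stimulated cells was lost without stimulated library 2 or 3 (-0.15 and -0.10). Plk4 leaned towards cast, with 56.2%, 55.6% and 55.1% in stimulated libraries, against 60.3%, 55.8% and 64.5% in unstimulated libraries (0.33 and 0.63), and its call in stimulated cells was lost without any of the stimulated libraries 1, 2 or 3 (0.31, 0.33 and 0.34). Cenpf had 53.7%, 54.8% and 54.5% in stimulated libraries, against 60.5%, 60.4% and 52.8% in unstimulated libraries (0.25 and 0.37); the calls were lost without stimulated library 2 or 3 (0.24 and 0.25) and without unstimulated library 1 or 2 (0.29 each). Cdc25b had 48.1%, 42.9% and 42.4% in stimulated libraries, against 44.9%, 40.5% and 48.7% in unstimulated libraries (-0.32 and -0.30), with the calls lost without stimulated library 2 or 3 (-0.28 and -0.26) and without unstimulated library 1 or 2 (-0.31 and -0.18). Spc24 had 41.5%, 45.5% and 37.8% in stimulated libraries, against 32.6%, 45.5% and 37.5% in unstimulated libraries (-0.49 and -0.74), with the calls lost without stimulated library 1 or 3 (-0.49 and -0.38), without unstimulated library 1 or 3 (-0.64 and -0.75), and in unstimulated cells once same-numbered libraries were blocked (-0.66, adjusted p = 0.0527). These 8 genes passed in both groups.

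In stimulated cells alone, 5 more passed. Ccnb1 leaned towards mus with little spread after stimulation, with 40.1%, 39.7% and 39.8% in stimulated libraries, against 45.8%, 57.1% and 41.7% in unstimulated libraries (log2 ratios of -0.59 and -0.24). Cenpa had 44.6%, 42.4% and 44.6% in stimulated libraries, against 49.0%, 43.8% and 48.6% in unstimulated libraries (-0.36 and -0.16). Both calls held under every alternative run. Nuf2 had 53.4%, 59.7% and 59.5% in stimulated libraries, against 61.4%, 45.1% and 56.8% in unstimulated libraries (0.44 and 0.30), and its call was lost without stimulated library 3 (0.38, adjusted p = 0.0604, edgeR). Aurkb had 63.6%, 50.3% and 53.2% in stimulated libraries, against 60.9%, 60.0% and 50.3% in unstimulated libraries (0.33 and 0.29), with stimulated library 1 above the others, and its call was lost without that library (0.10, adjusted p = 0.526) or without stimulated library 3 (0.41, adjusted p = 0.064). Pttg1 passed as well (1.28), and its call was lost with DESeq2 (adjusted p = 0.0642). In unstimulated cells alone, 6 passed, all towards mus. Bub1b had a log2 ratio of -0.66 and held under every alternative run. Nusap1 had 49.1%, 48.5% and 45.9% in stimulated libraries, against 34.9%, 39.7% and 47.7% in unstimulated libraries, with the call in unstimulated cells (-0.42) lost without unstimulated library 1 or 2 (-0.27 and -0.35). Mad2l1 had 47.6%, 48.0% and 47.9% in stimulated libraries, against 48.1%, 29.1% and 40.1% in unstimulated libraries, with its call (-0.63) lost without unstimulated library 2 or 3 (-0.40 and -0.68). Ncapd2 had 51.6%, 51.5% and 49.2% in stimulated libraries, against 46.3%, 45.3% and 49.4% in unstimulated libraries, with its call (-0.16) lost without unstimulated library 1 or 2 (-0.13 and -0.12). Kif23 had 53.6%, 47.0% and 45% in stimulated libraries, against 39.0%, 43.5% and 44.1% in unstimulated libraries, with its call (-0.45) lost without unstimulated library 1 (-0.36), as was that of Espl1 (-0.55, and -0.26 without it). A pass in 1 group alone does not show that the groups differ, which was tested separately.

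The cast share itself changed with stimulation in 3 of the 53 genes, beside 10.4% of all autosomal genes tested. Without unstimulated library 3, 7 genes passed, and without stimulated library 2 or 3, 1 passed. Bub1b (chr2:118598211-118641591, plus strand, mm10) had 51.7%, 52.5% and 52.0% in stimulated libraries, against 37.5%, 34.7% and 41.3% in unstimulated libraries, without overlap. Its log2 cast to mus ratio was higher in stimulated cells by 0.78 (adjusted p = 0.00026, edgeR), and the call held under every alternative run. Espl1 had 53.7%, 54.1% and 52.0% in stimulated libraries, against 25.2%, 44.9% and 45.8% in unstimulated libraries, a change of 0.74 (adjusted p = 0.031). The call was lost without stimulated library 1, 2 or 3 (0.73, 0.71 and 0.78), and the change was 0.45 without unstimulated library 1. Pttg1 had 56.7%, 77.1% and 77.0% in stimulated libraries, against 69.9%, 29.2% and 39.7% in unstimulated libraries, a change of 1.60 (adjusted p = 0.036), with overlapping groups and unstimulated libraries that leaned opposite ways. Its call was lost without stimulated library 2 or 3 (1.37 and 1.36) and without unstimulated library 2 or 3 (1.13 and 1.42), and library 1 was the outlying library in both groups. With same-numbered libraries blocked, 4 genes passed, Ncapd2 being added (0.20, adjusted p = 0.0346). DESeq2 kept Bub1b alone.

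**Figure D5:**
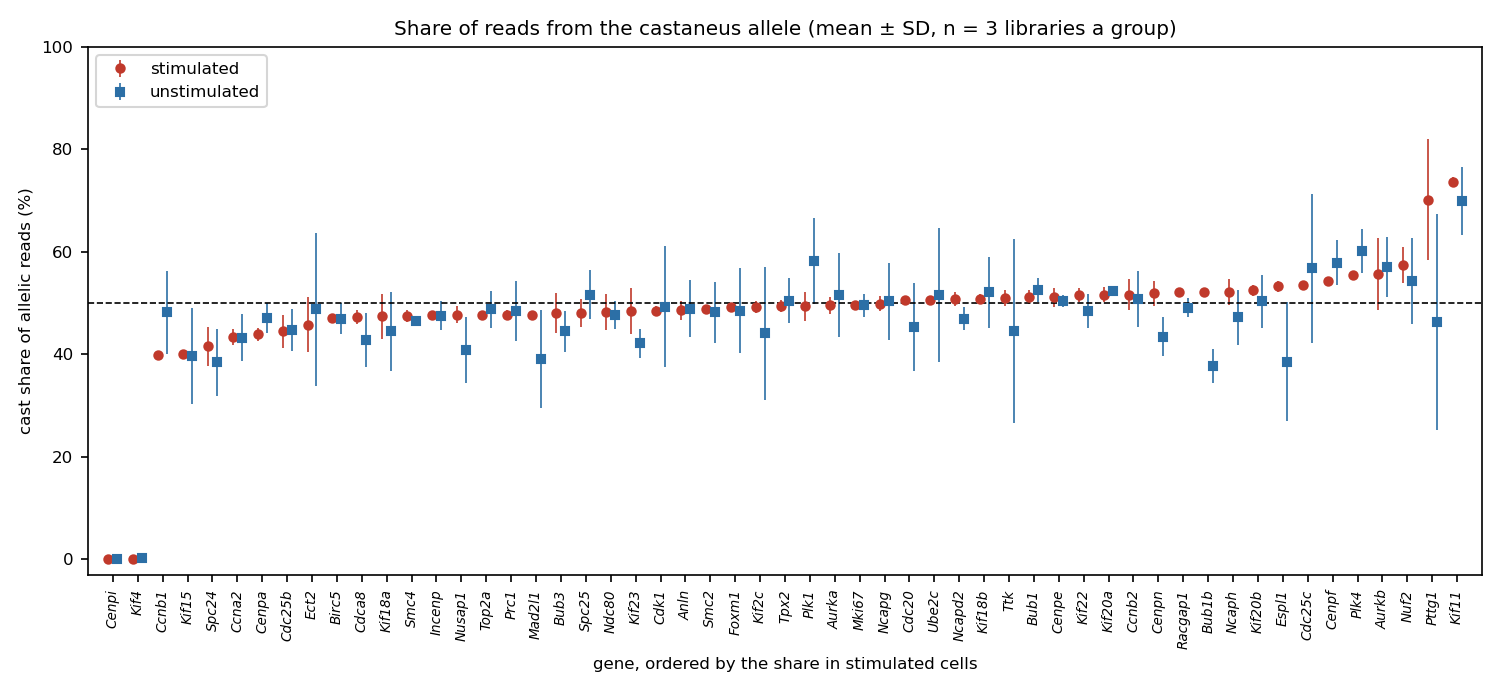
Share of allelic reads from the cast genome (vertical axis, percent, mean ± SD of 3 libraries) for each gene, stimulated in red left of unstimulated in blue, ordered by the stimulated share. The X-linked Cenpi and Kif4 sit at 0 or near it, Kif11 stands highest at 73.7% and 69.9%, and Bub1b is at 52.1% in stimulated and 37.8% in unstimulated cells.

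The X-linked genes were read from the active mus X. Kif4 had 2 cast reads of 6003 allelic reads (0.0333%) in stimulated cells and 2 of 486 (0.412%) in unstimulated cells. By library, the cast reads came from stimulated library 2, at 0.0948% (95% exact Clopper-Pearson interval 0.0115% to 0.342%), and from unstimulated library 3, at 0.602% (0.073% to 2.16%). Cenpi had 0 cast reads of 1211 in stimulated cells, which allows a share of up to 0.248%, and 0 of 96 in unstimulated cells, which allows up to 3.12%. Limits at 0 cast reads are 3 divided by the allelic reads, not ends of the exact interval. These intervals and limits cover counting error only. Both genes rose with the rest of the module. In unstimulated libraries 1 and 2, Kif4 had 0 cast reads of 89 and of 65, which allows up to 3.37% and 4.62%. The exact 95% intervals of these libraries reach higher, to 4.06% and 5.52%.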

How the data were processed

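RNA-seq libraries of stimulated and unstimulated CD3+ T cells (3 each) were made from total RNA with a stranded ribosomal-depletion kit, per the labels' protocols. The submitters' processing notes name STAR 2.7.1a, featureCounts and the mm10 build; for the annotation, the strand setting and the assignment of reads to alleles, no source used here gives the method. The authors deposited RPKM per gene and library, and, in a second table, read counts per gene from the mus and the cast allele; both were used as deposited. Allele-assigned reads ranged from 14905853 to 20249376 in stimulated and from 9606755 to 11893039 in unstimulated libraries, and the step between low RPKM values put the depth behind the RPKM at 22.8 to 30.4 M reads and 12.7 to 16.3 M reads.

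RPKM were tested on log2(RPKM + 1) with limma 3.58.1 (R 4.3.3, trend, two-sided) over the 13288 genes with at least 1 RPKM in at least 3 libraries, p adjusted by Benjamini-Hochberg, threshold 0.05. Allelic counts were tested with edgeR 4.0.16 (quasi-likelihood, 1 term per library, library size the sum of both alleles, at least 30 allelic reads per group). Alternatives used DESeq2 1.42.0, other pseudocounts, filters and scalings, a replicate block, and leaving out each library. The limma and edgeR fits were tested on simulated data. Gene positions came from GENCODE M21 (mm10), and promoter windows from RefSeq (GRCm38.p6).

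The 55 genes and all lists were chosen with earlier results of these data known. Values of every library are given for the member of each role with the largest and the smallest log2 fold change, members that did not pass, X-linked members, the 3 largest and 3 smallest ratios of unstimulated library 3, and members passing an allelic test; of other lists, at most 4 genes, the 2 that rose and the 2 that fell most. The labels call the libraries biological replicates and do not name the mice. Replicate numbers are shared by both groups. Deviations of the allelic ratio from the group mean correlated at 0.282, 0.298 and 0.182 between same-numbered libraries (9043 genes). Correlations between others ran from -0.221 to -0.0664. Deviations from a mean of 3 libraries push these down as a set once the same-numbered ones are above 0, without fixing the sign of each. In RPKM the same-numbered correlations were 0.00603, 0.0611 and 0.0908, and those between others ran from -0.0979 to 0.0692. Same-numbered libraries thus deviated together in allelic ratio, but whether they share a mouse is not stated by the labels.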

Additional observations from a re-analysis of the deposited data

Results flagged for a closer look

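The cast share of 3 genes of the module differed between the groups by the test of the difference itself, a test that 10.4% of all autosomal genes passed. The log2 cast to mus ratio of Bub1b, the BubR1 gene of the spindle checkpoint, was higher by 0.78 in stimulated than in unstimulated cells, with mean cast shares of 52.1% and 37.8% (edgeR, adjusted p = 0.00026). That of Espl1, the separase gene, was higher by 0.74, with 53.3% in stimulated and 38.6% in unstimulated cells (edgeR, adjusted p = 0.031). That of Pttg1, the securin gene, was higher by 1.6, with 70.2% ± 11.8 in stimulated and 46.3% ± 21.1 in unstimulated cells (SD, n = 3; edgeR, adjusted p = 0.036). In unstimulated cells the 3 genes had 939, 555 and 1234 allelic reads. DESeq2 kept Bub1b alone (adjusted p = 0.0982 for Espl1 and 0.27 for Pttg1), and the calls of Espl1 and Pttg1, but not that of Bub1b, were lost in some fits with a single library left out. The cause of these differences was not tested.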

How the results depend on the processing

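The count of mitotic genes higher in stimulated cells was 52 to 55 and that of lower genes 0 under all 10 settings other than leaving out a library, and 53 to 54 and 0 with each library left out. The log2 fold change of Smc4 ranged from -0.02 (without unstimulated library 1, adjusted p = 0.744, limma) to 0.15 with each library left out. The gap of unstimulated library 3 over libraries 1 and 2, 1.21 on the log2 scale, was 1.5 in allelic reads scaled to library totals, 1.35 as a median and 1.17 after quantile normalization. The count of genes with a changed cast share, 3, was 1 with DESeq2 and 1 to 7 with a library left out, being 1 without stimulated library 2 or 3 and 7 without unstimulated library 3. The count read unequally in stimulated cells, 13, was 6 to 15 with a library left out, and that in unstimulated cells, 14, was 8 to 15. With the replicate number as a block these counts were 4, 15 and 15 and that of higher genes 53; the block ended the call of Spc24 in unstimulated cells, added the calls of Ncapd2, Espl1, Top2a, Bub3 and Plk1 given in the report, and changed no other. Where a library left out ends a call, fewer samples were tested. Depth limits the allelic results in unstimulated cells, where a gene had as few as 30 allelic reads.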
